A study of Caenorhabditis elegans with 2 samples.

Results

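Sites at one-direction promoters are places where the FLH-1 ChIP-seq signal peaked inside the promoter of protein-coding genes of 1 strand only. Promoters began 1000 bp before an annotated gene start and ended 200 bp after it. Sites were selected on the pooled signal value: each had to rank among the strongest 4000 of the 30000 entries of the pooled peak list, on a nuclear chromosome, and more than 100 bp from every tRNA, snoRNA, snRNA and microRNA gene. By this rule 885 of the 3993 nuclear entries among the strongest 4000 were one-direction sites. The rule used the pooled signal value and where the summit lay relative to gene starts, so signal and distance to the gene are given below as descriptions and without a test. For reference, 234 of the 3993 entries had their summit in promoters of both strands and are called divergent sites. A further 5280 entries of the pooled list met every part of the rule except the rank limit and are called lower-ranked entries.

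The data came from 2 biological replicates of 1 group, immunoprecipitated with an antibody against GFP (the antibody label itself reads flh-1, the tagged protein) from mixed-stage Caenorhabditis elegans embryos of both sexes, collected by egg bleaching and labelled with an age of 2 hours. The strain, OP702, is mutant in its own unc-119 (allele tm4063) and carries the transgene wgIs702, in which flh-1 is joined to TY1, EGFP and 3xFLAG tags beside a rescuing unc-119 copy. The profile is therefore that of a tagged extra copy of the protein, in all cells of whole embryos at once, and sites of different cell types cannot be told apart. No untagged strain or mock precipitation was analysed here. The lists hold signal values and no read counts, so depth is unknown and every interval below covers counting of sites only.

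FLH-1 is a nuclear protein of C. elegans with a FLYWCH zinc finger, a DNA-binding fold, and is known for repressing microRNA genes in embryos together with its relative FLH-2. A promoter is the stretch of DNA around a gene's start where transcription factors and RNA polymerase assemble. Many worm genes start close to a neighbour that is read the other way and share one upstream region with it, whereas a one-direction promoter serves genes of a single strand.

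The sequences under the highest summits are shown first, so that the strongest sites can be compared letter by letter. Each is the 101-bp window centred on a pooled summit, read on the strand of the gene in the assembly WBcel235 (the sequence of ce11) from RefSeq. They are the strongest one-direction sites, except eif-3.C, for which values alone are given. Capitals mark GAGAGA or GCGCGC or their reverse complements.
K12H4.5, chrIII:8043881-8043981, plus strand: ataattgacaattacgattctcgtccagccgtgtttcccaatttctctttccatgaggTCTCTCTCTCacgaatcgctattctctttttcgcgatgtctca
ftt-2, first site, chrX:11605887-11605987, minus strand: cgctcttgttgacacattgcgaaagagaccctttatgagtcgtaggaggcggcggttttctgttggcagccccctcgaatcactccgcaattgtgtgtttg
T13C5.6, chrX:6207807-6207907, minus strand: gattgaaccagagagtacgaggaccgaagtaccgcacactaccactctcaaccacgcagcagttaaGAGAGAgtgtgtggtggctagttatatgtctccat
W01D2.3, chrII:14804581-14804681, minus strand: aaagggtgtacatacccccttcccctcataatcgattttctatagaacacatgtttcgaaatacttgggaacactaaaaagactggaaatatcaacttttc
ftt-2, second site, chrX:11606089-11606189, minus strand: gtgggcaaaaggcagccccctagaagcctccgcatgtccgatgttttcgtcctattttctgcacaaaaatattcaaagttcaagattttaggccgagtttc
Y39E4B.6, chrIII:13070634-13070734, plus strand: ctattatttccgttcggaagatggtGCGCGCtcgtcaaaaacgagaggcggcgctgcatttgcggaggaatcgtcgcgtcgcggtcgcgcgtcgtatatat
rpl-3, chrIII:3867544-3867644, plus strand: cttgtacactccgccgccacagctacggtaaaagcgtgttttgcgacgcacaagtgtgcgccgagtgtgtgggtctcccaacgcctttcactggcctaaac
sto-4, chrX:11643919-11644019, plus strand: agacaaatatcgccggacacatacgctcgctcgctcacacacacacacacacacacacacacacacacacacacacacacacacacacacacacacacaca
spat-3, chrX:4606625-4606725, minus strand: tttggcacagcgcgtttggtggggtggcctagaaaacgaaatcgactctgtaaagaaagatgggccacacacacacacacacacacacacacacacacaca

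No marked word was in most of these windows. The windows of K12H4.5 and T13C5.6 held GAGAGA or its reverse complement and that of Y39E4B.6 held GCGCGC. The windows of sto-4 and spat-3 held unbroken runs of alternating C and A of 66 and 36 bp within the window. The 2 windows at ftt-2, whose summits lie 202 bp apart, share the 11-base run GGCAGCCCCCT, which no other of the 885 windows held and which was found in 2 of 191627 tiled windows of 101 bp whose centre lies in a one-direction promoter.

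A second set of windows is shown for a pattern that 9 of the 72 strongest sites share. Reading the windows of sites that hold TTGCAA, and so after their values were seen, a spaced pattern was found, in which TGCGG and TTGC stand on the same strand with 5 bases of any kind between them. Capitals mark those 2 parts here.
ccdc-47, chrIII:3916779-3916879, plus strand: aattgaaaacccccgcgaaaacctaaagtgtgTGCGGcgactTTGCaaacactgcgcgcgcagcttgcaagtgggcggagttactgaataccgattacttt
swsn-3, chrIII:2768790-2768890, minus strand: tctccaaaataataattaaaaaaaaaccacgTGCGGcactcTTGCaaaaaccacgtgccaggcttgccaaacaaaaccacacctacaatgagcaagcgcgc
C46F11.4, chrIII:3664410-3664510, minus strand: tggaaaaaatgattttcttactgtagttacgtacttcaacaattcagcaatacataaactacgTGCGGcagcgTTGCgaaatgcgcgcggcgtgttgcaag
npp-8, chrIV:1595936-1596036, minus strand: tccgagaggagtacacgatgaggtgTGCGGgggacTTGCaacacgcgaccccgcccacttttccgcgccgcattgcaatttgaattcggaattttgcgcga
rps-28, chrIV:1659220-1659320, plus strand: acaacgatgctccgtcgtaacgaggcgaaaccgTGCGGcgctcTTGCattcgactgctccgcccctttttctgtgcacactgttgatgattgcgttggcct
F39G3.3, chrV:4731552-4731652, plus strand: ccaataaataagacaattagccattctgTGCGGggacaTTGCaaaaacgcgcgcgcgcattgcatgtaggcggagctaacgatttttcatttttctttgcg
R148.3, chrIII:3175155-3175255, plus strand: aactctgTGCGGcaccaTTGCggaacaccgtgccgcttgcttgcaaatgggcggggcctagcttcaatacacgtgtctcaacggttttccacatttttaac
usp-4, chrIV:6756596-6756696, plus strand: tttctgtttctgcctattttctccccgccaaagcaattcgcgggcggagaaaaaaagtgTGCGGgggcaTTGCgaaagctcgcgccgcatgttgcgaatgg
ril-1, chrV:14524322-14524422, minus strand: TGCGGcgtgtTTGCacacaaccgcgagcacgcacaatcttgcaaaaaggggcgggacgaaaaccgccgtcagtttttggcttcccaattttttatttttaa

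The genes carrying this pattern have varied roles. ccdc-47 encodes a subunit of the PAT complex, which helps membrane proteins fold in the endoplasmic reticulum, and swsn-3 an HMG-box subunit of the SWI/SNF chromatin remodeller. C46F11.4 encodes an RNA helicase, npp-8 a nucleoporin, rps-28 a small-subunit ribosomal protein, F39G3.3 a histone H3-K79 methyltransferase by its annotation, and usp-4 a ubiquitin-specific protease. In all 9 windows the pattern ran in the direction of the gene. It was found in windows written on the strand of the gene, so this direction is in part fixed by how it was read. All 9 summits lay upstream of the 5′ end, with a median of 162 bp, and 8 of the 9 lay between genes. Of all 72 optimal sites, 94.4% were upstream and 87.5% lay between genes. The centre of the pattern was 10 to 44 bp from the summit, with a median of 16 bp. Matches were looked for only inside these 101-bp windows, so a centre farther away than 44 bp could not be found. The upper end of this range is therefore set by the window, and closeness to the summit was not tested.

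Over all 885 one-direction sites, 18 held the spaced pattern, which is 2.03% (exact 95% interval 1.21 to 3.20%). Among the 72 sites of the optimal set the share was 12.5% (9 of 72, 5.88 to 22.4%) and among the other 813 it was 1.11% (9 of 813). Of the 5280 lower-ranked entries 7 held it, or 0.133%, and of all 191627 tiled one-direction windows 157, or 0.0819%. None of the 18 was on chromosome X, and 17 of the 18 had an entry in both replicate lists. Such an entry could rank low, as at usp-4 with rank 17885 in replicate 2. All 18 summits lay upstream of the 5′ end, and in 15 of the 18, which include the 9 optimal windows, the pattern ran in the direction of the gene. Over all 885 sites, 22.6% were on chromosome X, 62.7% had an entry in both lists and 86.2% were upstream. Of the 72 optimal sites, 94.4% had an entry in both lists and 94.4% were upstream. When one-direction sites were taken by the same rule from a single replicate's list, 9 of 834 held the pattern for replicate 1 and 16 of 837 for replicate 2. Among the sites in the strongest 371 of those lists it was in 5 of 70 (7.14%) for replicate 1 and 7 of 68 (10.3%) for replicate 2. The pattern was read from windows of the pooled list, which these same replicates made up, so their counts are a description and not an independent check.

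GC content was set beside this pattern. In tiled windows the pattern was more frequent under a lower limit on GC, whereas in optimal sites its share was 12.5% with and without that limit. Among windows with at least 45% GC, the spaced pattern was in 7 of 56 optimal one-direction sites (12.5%), in 4 of 1435 lower-ranked entries (0.279%) and in 68 of 23252 tiled windows (0.292%). The gap of 5 bases was set when the pattern was read off these windows, so the counts at other gaps from 0 to 12, at most 1 of the 72 optimal windows each, are a description and support nothing. The divergent sites, whose windows were not read when the pattern was found, held it in 16 of 234 (6.84%), and those of the optimal set in 10 of 31 (32.3%). Of the tiled divergent windows 39 of 20543 held it (0.190%). The pattern was read from windows with TTGCAA, a word in 28 of 234 divergent and 48 of 885 one-direction windows. The divergent counts are therefore a description and not an independent check. Across the 6 nuclear chromosomes the pattern matched 982 times, of which 52 lay within 50 bp of a summit among the strongest 4000 entries and 24 within 50 bp of a summit of the optimal set. Most matches in the genome therefore had no strong entry beside them. A match is a match of letters only, and its part in the signal was not tested.

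**Figure D1:**
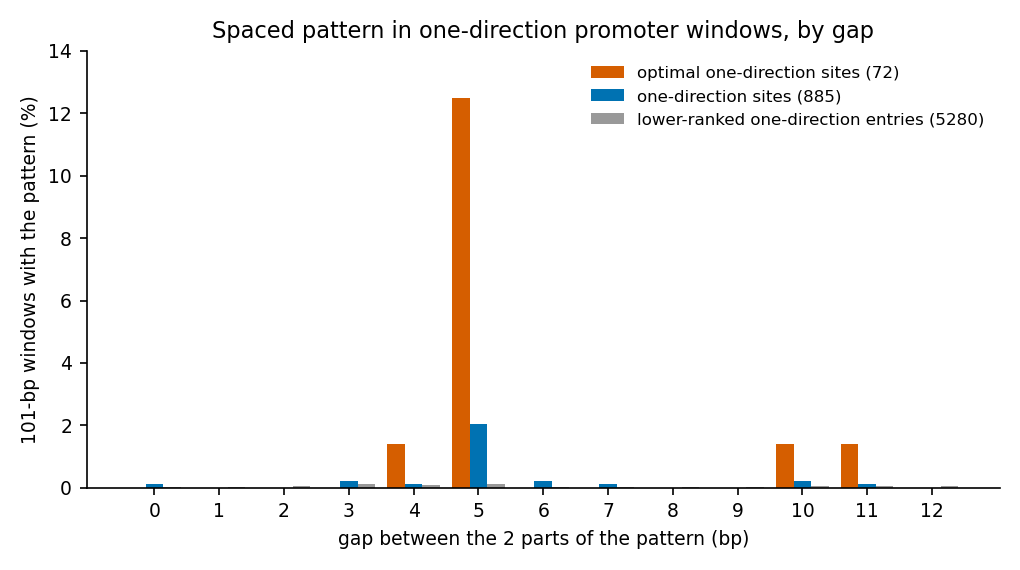
Share of 101-bp windows (%) that hold TGCGG and TTGC on the same strand, by the number of bases between them (bp), for optimal one-direction sites, all one-direction sites and lower-ranked entries. At a gap of 5 bp the optimal sites reach 12.5% and all one-direction sites 2.03%, and no other gap exceeds 1.39% in any of these groups; the gap was chosen from the windows of the optimal one-direction sites, so its height there is fixed in part by that choice.

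The strongest one-direction site of all lay 556 bp upstream of K12H4.5, which encodes an uncharacterized protein. Its pooled signal value, in the units of the authors' peak caller, was 338, the pooled rank was 16, and it ranked 18 in the replicate 1 list and 16 in the replicate 2 list. The next, at 518 bp upstream of ftt-2, had a pooled signal of 310 and ranked 15 in replicate 1 and 41 in replicate 2. ftt-2 encodes a 14-3-3 protein, one of the adaptors that bind phosphorylated partners. Its second site, 720 bp upstream, had a pooled signal of 213 and ranked 40 in replicate 1 and 118 in replicate 2. Both ftt-2 sites stood high in both lists.

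The site 170 bp upstream of T13C5.6, whose product has a phosphatidic acid phosphatase domain, had a pooled signal of 264 and ranks of 36 and 35 in replicates 1 and 2. The site 322 bp upstream of W01D2.3, a receptor expression-enhancing protein of the kind that shapes the endoplasmic reticulum, had a signal of 240 and ranks of 48 and 52. In these windows the replicates placed the site almost equally.

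Genes of translation and of the nucleus followed. The site 231 bp upstream of eif-3.C, a subunit of translation initiation factor 3, had a pooled signal of 201 and ranks of 102 and 66 in replicates 1 and 2. The site 260 bp upstream of rpl-3, a large-subunit ribosomal protein, had 199, with ranks of 71 and 90. Y39E4B.6, which encodes Smad nuclear-interacting protein 1, had a site 72 bp upstream with a signal of 200 and ranks of 79 and 75. Ribosome and initiation factor genes thus stood among the strongest sites, but most genes of those lists had none, as the list counts below show.

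Further down, dhs-8, a dehydrogenase of the short-chain family, had a site 993 bp upstream with a signal of 171 and ranks of 108 and 97 in replicates 1 and 2. spat-3, a RING-type ubiquitin ligase homologous to RING2, had 173 at 747 bp upstream, with ranks of 123 and 79. ccdc-47 had 169 at 138 bp upstream, with ranks of 125 and 89. The replicates ranked these sites similarly as well.

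One of the strongest sites lacked an entry in 1 replicate list. The site 157 bp upstream of sto-4, a stomatin-like membrane protein, had a pooled signal of 181 and ranked 74 in replicate 1, and the replicate 2 list held no summit within 100 bp. The nearest replicate 2 summit was 133 bp away, ranked 151 and was the entry counted for the other sto-4 site, 45 bp downstream. The window at 157 bp upstream is the one with the 66-bp run of alternating C and A. Runs of at least 12 bp of that kind were in 4 of 72 optimal sites (sto-4, spat-3, hmg-1.1 and zag-1; 5.56%), in 11 of all 885 (1.24%), in 16 of 5280 lower-ranked entries (0.303%) and in 275 of 191627 tiled windows (0.144%). Of the 11 sites, 5 were on chromosome X and 6 had an entry in both replicate lists. The part of such repeats in these entries was not tested.

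The pooled signal of the 885 sites ran from 47.05 to 338 with a median of 55.1. The divergent sites had a median of 59.3 and all nuclear entries among the strongest 4000 a median of 55.1. Just inside the limit were mcm-4 (47.09), a subunit of the replicative helicase, F53F8.6 (47.06) and rpn-5 (47.05), a proteasome subunit. Just outside were C53D5.5 (47.02), Y65B4A.9 (47.01) and ego-2 (46.99). The limit therefore cuts through a continuous range of values.

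Support in both replicates was then counted, with an entry of a replicate list counted where its summit lay within 100 bp. Of the 885 one-direction sites, 555 had an entry in both lists, which is 62.7% (exact 95% interval 59.4 to 65.9%), against 64.8% of all nuclear entries among the strongest 4000. The share was thus near that background. Divergent sites reached 70.5% (165 of 234). Replicate 1 held an entry for 794 of the 885 sites and replicate 2 for 627. The replicate 1 list was the sole support of 239 sites and the replicate 2 list that of 72, and 19 sites had none. The pooled list was made from both replicates, so these shares are not independent of the pooled signal.

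Agreement in rank was narrower than agreement in presence. Of the 885 sites, 144 (16.3%) had an entry among the strongest 4000 of both replicate lists, compared with 33.3% of divergent sites and 19.7% of all nuclear entries among the strongest 4000 (787 of 3993). Over the 555 sites with an entry in both lists, the Spearman correlation of the replicates' signal values was 0.0176. It was 0.354 over the 68 of these in the optimal set and −0.325 over the 487 others. Both replicates feed the pooled signal on which the sites were selected, and the part of this selection in the correlations was not tested. Sites are also not independent replicates. The largest gaps in rank were at lsm-6, an Sm-like RNA-processing protein, which ranked 416 in replicate 1 and 29818 in replicate 2, at hpo-2 (507 and 28793) and at hum-5, an unconventional myosin (1280 and 29437).

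The optimal set left by the irreproducible discovery rate procedure, which compares ranks between replicates, held 72 one-direction sites, or 8.14% (6.42 to 10.1%), against 9.12% of all nuclear entries among the strongest 4000 and 13.2% of divergent sites (31 of 234). The 371 entries of that set are the 371 highest of the pooled list, so membership is a cut on the same signal that chose the sites. The 72 sites had a median pooled signal of 112.4. Both replicate lists held a summit within 100 bp for 68 of them. The exceptions were sto-4, F09C8.2, which encodes a protein with a C3H1 zinc finger, ain-1, a GW182-type component of microRNA silencing, and egg-5, an egg-activation protein. F09C8.2 and ain-1 ranked 164 and 278 in replicate 1 and had their nearest replicate 2 summits at 122 and 236 bp, at ranks 347 and 227. egg-5 ranked 140 in replicate 2 and had its nearest replicate 1 summit at 114 bp, at rank 104. For all 4 sites, then, a high-ranking entry of the other list lay nearby but outside the 100 bp allowed. For sto-4, F09C8.2 and ain-1 that entry was the one counted for the gene's other one-direction site, so it is not separate support for the site named here.

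**Figure D2:**
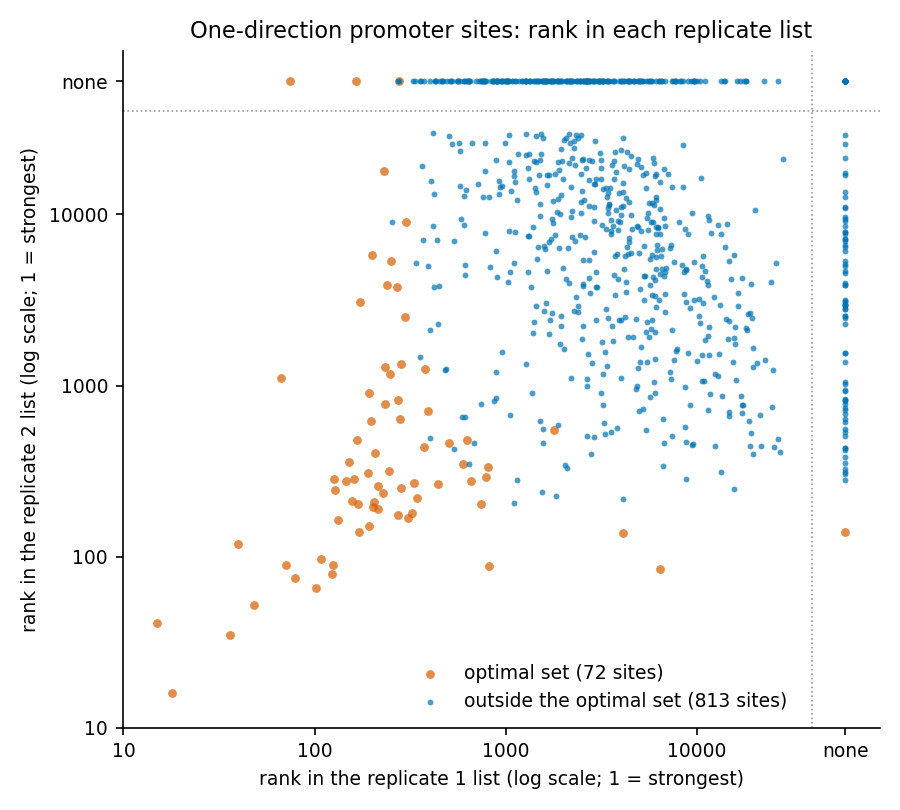
Rank of each of the 885 one-direction sites in the replicate 1 list (horizontal) and the replicate 2 list (vertical), both on log axes with 1 the strongest; points at "none" had no summit within 100 bp in that list. Of the 72 optimal sites, 68 have an entry in both lists, and over all 885 sites the replicate 1 list holds an entry for 794 and the replicate 2 list for 627.

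The side of the gene start on which a site lay was largely set by the rule, which allows 1000 bp upstream and 200 bp downstream. Of the 885 summits, 763 (86.2%) were upstream of the nearest 5′ end, with a median position 310 bp upstream. Of the lower-ranked entries 79.3% were upstream, with a median of 328 bp, and of the centres of the tiled one-direction windows 82.9%, with a median of 402 bp. The optimal sites sat closer in, with 68 of 72 upstream (94.4%) and a median of 253.5 bp. The bin from 100 to 200 bp upstream alone held 20 of the 72 (27.8%), compared with 11.8% of the other 813 sites. Of the 9 optimal sites with the spaced pattern, ccdc-47, swsn-3, C46F11.4, npp-8 and R148.3 fell in that bin.

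**Figure D3:**
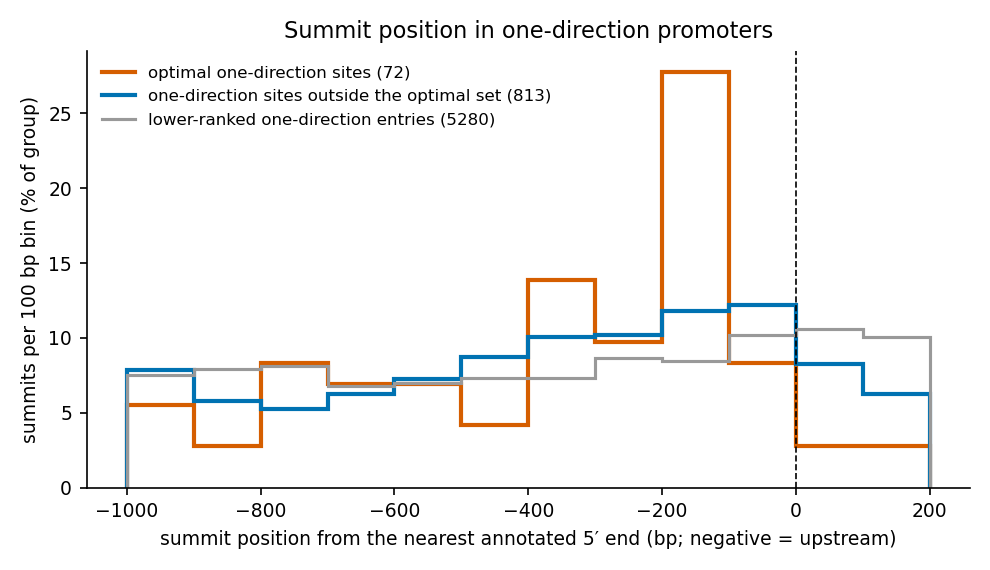
Position of the summit from the nearest annotated 5′ end (bp, negative upstream) as the share of each group per 100-bp bin (%), for 72 optimal sites, the 813 other one-direction sites and 5280 lower-ranked entries. The optimal sites peak at 27.8% in the bin from 100 to 200 bp upstream, where the other one-direction sites hold 11.8%.

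By annotation, 607 of the 885 summits lay between genes (68.6%), 121 in coding exons (13.7%), 84 in introns (9.49%) and 73 in untranslated exons (8.25%). The bases that the rule could reach are 56.7% intergenic and 21.5% coding exon. Lower-ranked entries, by comparison, were 53.4% intergenic and 24.5% coding exon. Of the summits inside a gene body, 121 lay in the gene's own body, 87 in another gene of the same strand and 70 in another gene of the opposite strand.

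The place of the summit shifted steadily with rank. Among the 72 optimal sites none lay in a coding exon, which allows a share of up to 4.99%, and 63 lay between genes (87.5%). In the strongest 371 entries of each replicate's own list the count in coding exons was likewise 0, of 70 sites for replicate 1 and of 68 for replicate 2. Coding exons held 7.2% of the sites at pooled ranks 372 to 1000, 15.1% at 1001 to 2000, 15.7% at 2001 to 3000 and 18.2% at 3001 to 4000. At ranks 4001 to 10000 the share was 24.3%, above the 21.5% of the bases that could be reached. No difference between one-direction and divergent sites was detectable in this respect: 13.7% against 14.5% lay in coding exons, a difference of −0.858 percentage points (two-sided Fisher's exact test, adjusted p = 0.909 over 20 tests). The classes compared were formed by where the summit lay relative to promoters, and coding exons make up 21.5% of one-direction and 21.3% of divergent promoter bases.

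GC content shifted in the same order. The 101-bp windows of the 885 sites averaged 44.8 ± 9.85% GC (SD over sites), those of the optimal sites 49.99 ± 9.29%, those of lower-ranked entries 39.8 ± 8.81%, and divergent windows 44.3 ± 9.44%. Tiled one-direction windows averaged 35.1% GC. From the highest ranks to the lowest the mean fell in each class, with 48.7% at ranks 372 to 1000, 41.9% at 3001 to 4000 and 39.3% at 10001 to 30000. The part of GC content in the signal was not tested.

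**Figure D4:**
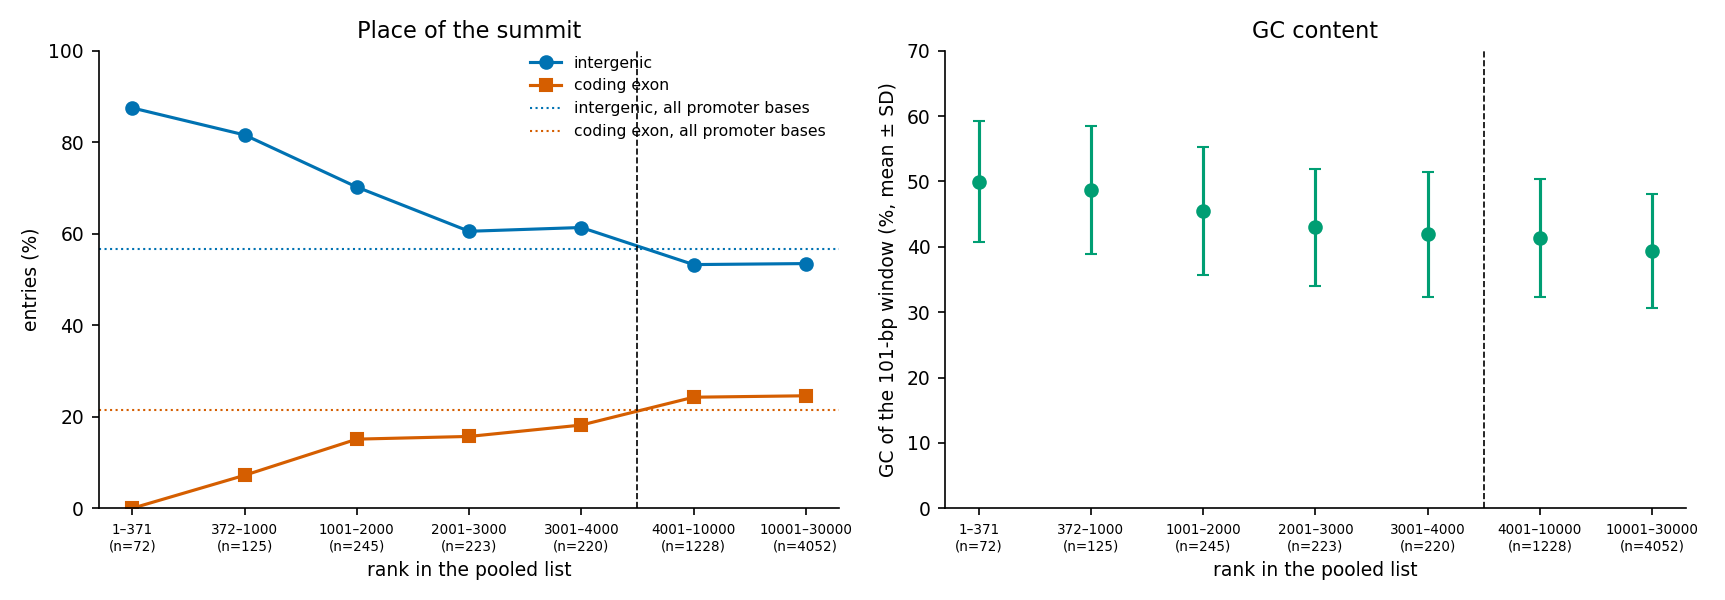
Left, share of one-direction entries (%) whose summit is intergenic or in a coding exon, by pooled rank, with dotted lines for the share of all one-direction promoter bases. Right, GC content (%) of the 101-bp window, mean ± SD over entries; the dashed vertical line marks rank 4000. Coding exons go from none of 72 at the top ranks to 24.6% at the lowest, and mean GC from 49.99 to 39.3%.

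Chromosome X held a larger part of the one-direction sites than of the divergent ones. It carried 200 of the 885 one-direction sites (22.6%, 19.9 to 25.5%) against 9 of 234 divergent sites (3.85%, 1.77 to 7.18%), a difference of 18.8 percentage points (two-sided Fisher's exact test, adjusted p = 4.03e-12). Of the 20 tests of this kind 10% passed an adjusted p of 0.05, the other being the word TTGCAA. The promoters themselves are unevenly spread, since chromosome X holds 15.4% of one-direction promoter bases and 5.54% of divergent promoter bases. The test does not take this uneven spread into account, and its part in the difference was not tested. Among the optimal sites 22 of 72 were on X (30.6%), among lower-ranked entries 15.9%, and among all nuclear entries of the strongest 4000 18.4%. ftt-2, T13C5.6, sto-4, spat-3, the bromodomain gene bet-2, the stress-response factor gene atf-6 and the kinase gene kin-29 are among those on X. Neighbouring sites share a promoter and are not fully independent, so the p-values of this family are too small by an unknown amount.

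Of 18 words of 6 bp counted in the 101-bp windows on both strands, 1 differed between the classes of promoter. TTGCAA was in 48 of 885 one-direction windows (5.42%) against 28 of 234 divergent windows (11.97%), a difference of −6.54 percentage points (two-sided Fisher's exact test, adjusted p = 0.0108). By the same exact test this call was lost without chromosome X (adjusted p = 0.342), with promoters of 500 bp upstream (0.0771), with windows of 25 bp to each side (0.0623) and in the optimal set alone (0.147). In that order the difference in these settings was −5.14, −7.35, −3.99 and −22.0 points, so its sign stayed. Within the optimal set TTGCAA was in 12 of 72 one-direction windows (16.7%) and 12 of 31 divergent windows (38.7%). GGGCGG was in 6.55% against 11.1% and ATTTTT in 33.4% against 41.5%, each with an adjusted p of 0.127. By the exact test GCGCGC was in 5.20% against 7.69% (adjusted p = 0.441) and GAGAGA in 16.8% against 14.5% (adjusted p = 0.778). These words did not pass the test, which does not show that the classes are alike.

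Along the ranks of one-direction sites the words followed different courses. TTGCAA was in 16.7% of optimal sites, in 4.43% of the other members, in 4.45% of lower-ranked entries and in 5.32% of tiled windows. GCGCGC was in 15.3% of optimal sites, 1.46% of lower-ranked entries and 0.715% of tiled windows. In windows with at least 45% GC, GCGCGC was in 14.3% of optimal sites, 3.41% of lower-ranked entries and 2.93% of tiled windows. GAGAGA was in 15.3% of optimal sites, 9.60% of lower-ranked entries and 5.89% of tiled windows, and was at its highest, 23.2%, at pooled ranks 372 to 1000. With at least 45% GC it was in 16.1% of optimal sites and 24.4% of the other one-direction sites. Under the same limit lower-ranked entries held it in 15.3% and tiled windows in 10.9%, so the optimal share was near that of lower-ranked entries. The A-rich word ATTTTT went the other way, with 22.2% of optimal sites, 38.3% of lower-ranked entries and 48.4% of tiled windows.

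TTGCAA and the GC-rich words occurred in the same windows. Of the 48 one-direction windows with TTGCAA, 10 held GCGCGC (20.8%) and 10 held GGGCGG (20.8%), against 36 (4.30%) and 48 (5.73%) of the 837 windows without it. Among lower-ranked entries GCGCGC was in 1.70% of windows with TTGCAA and 1.45% of windows without. The ccdc-47 window shown above holds all 3 words. The spaced pattern contains TTGC, so it overlaps TTGCAA in part of these windows, and these counts are not separate observations from those of the pattern.

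The 885 sites fell in the promoters of 854 of 19973 protein-coding genes, or 4.28%. For 865 sites the summit lay in the promoter of 1 gene, for 19 in those of 2 and for 1 in those of 3. Of the 854 genes, 552 had a site with support in both replicates and 71 had a site of the optimal set. No gene had 3 or more sites and 52 had 2. In 46 of these 52 genes the summits were less than 464 bp apart, the width of most entries, so that the entries overlap. Among neighbouring one-direction summits no gap was shorter than 199 bp, and 23 of the 44 gaps under 464 bp were between 199 and 209 bp. In the nuclear pooled list the shortest gap was also 199 bp, and 27.6% of 4642 gaps under 464 bp fell in that range. In all, 3 of the 52 genes had both sites in the optimal set, namely ftt-2, Y39E4B.6 and sto-4, with gaps of 202, 216 and 202 bp. Whether such pairs are separate sites or one broad site was not tested.

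Gene lists by function were counted against the 4.28% of all protein-coding genes, with no test of any list. Regulators of chromatin and of the cell cycle had sites in larger shares than all genes. Of 121 genes for chromatin and synMuv regulators 19 had a site (15.7%), 14 of them supported in both replicates; this list was corrected for wrongly matched symbols after its count was seen. The strongest were swsn-3 (pooled signal 144), bet-2 (107), a bromodomain protein, and swsn-7 (106), another subunit of SWI/SNF, all in the optimal set. Of 70 cell cycle regulators 9 had a site (12.9%), led by cdc-48.1 (126), the p97 ATPase that extracts ubiquitylated proteins, and mcm-10 (70.7), a replication factor. With a single replicate's list in place of the pooled list, the chromatin list had 17 (replicate 1) and 14 (replicate 2) genes with a site, and the cell cycle list 4 and 7.

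Transcription factor families differed. Of 64 genes for bHLH and bZIP factors 11 had a site (17.2%), among them atf-6 (115), which acts in the stress response of the endoplasmic reticulum, hlh-11 (110) and, at rank 3693 of the pooled list, hlh-1 (48.0), the worm MyoD. The count was 6 when sites came from the replicate 1 list and 3 when they came from that of replicate 2. Homeobox genes had 6 of 98 (6.12%), led by zag-1 (98.8), and nuclear hormone receptors 4 of 274 (1.46%), led by nhr-121 (67.6), with 8 when sites came from the replicate 2 list. None of the 4 genes of the FLYWCH family to which flh-1 belongs had a one-direction site, but 1 had one with the 5′ ends of all transcripts. Entries elsewhere at these genes were not counted.

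Among genes of protein synthesis and turnover, cytosolic ribosomal proteins had 6 of 78 (7.69%), of which rpl-3, rps-28 and rpl-35 were optimal. Translation factors had 5 of 42 (11.9%), of which eif-3.C was optimal and supported in both replicates. Chaperones had 4 of 68 (5.88%), led by hsp-1 (124), the constitutive Hsp70, and dnj-9 (111). Enzymes of the ubiquitin pathway had 7 of 66 (10.6%), led by usp-4 (94.0). Histones had 5 of 82 (6.10%), led by his-72 (91.5), a variant histone H3. With sites from the replicate 1 and replicate 2 lists the histone count was 3 and 8, and that of translation factors 5 and 2. The exact intervals of the ribosomal, translation factor, chaperone and histone shares include 4.28%, as the plot of list shares shows.

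Tissue lists and large families ranged widely. Body wall muscle genes had 6 of 51 (11.8%), led by unc-60 (59.3), an actin depolymerising factor, none of them optimal. The muscle count was 1 with the strongest 2000 entries, where 2.13% of all protein-coding genes had a site. Basement membrane genes had 4 of 17 (23.5%), among them sdn-1 (65.8), a syndecan, and nid-1 (56.0), a nidogen, and 2 when sites came from the replicate 1 list. Neuronal genes had 21 of 371 (5.66%) and genes of the epidermis and cuticle 14 of 360 (3.89%). Chemoreceptors had 11 of 1285 (0.856%), and F-box, MATH and C-type lectin families 13 of 685 (1.90%), with none in the optimal set. Genes of vacuolar ATPase (20) and of tubulins and actins (18) had none, but 2 vacuolar ATPase genes had a site when sites came from the replicate 2 list and 1 tubulin or actin gene had one with promoters of 500 bp. Genes differ in how much one-direction promoter they own, and the shares were not adjusted for it.

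**Figure D5:**
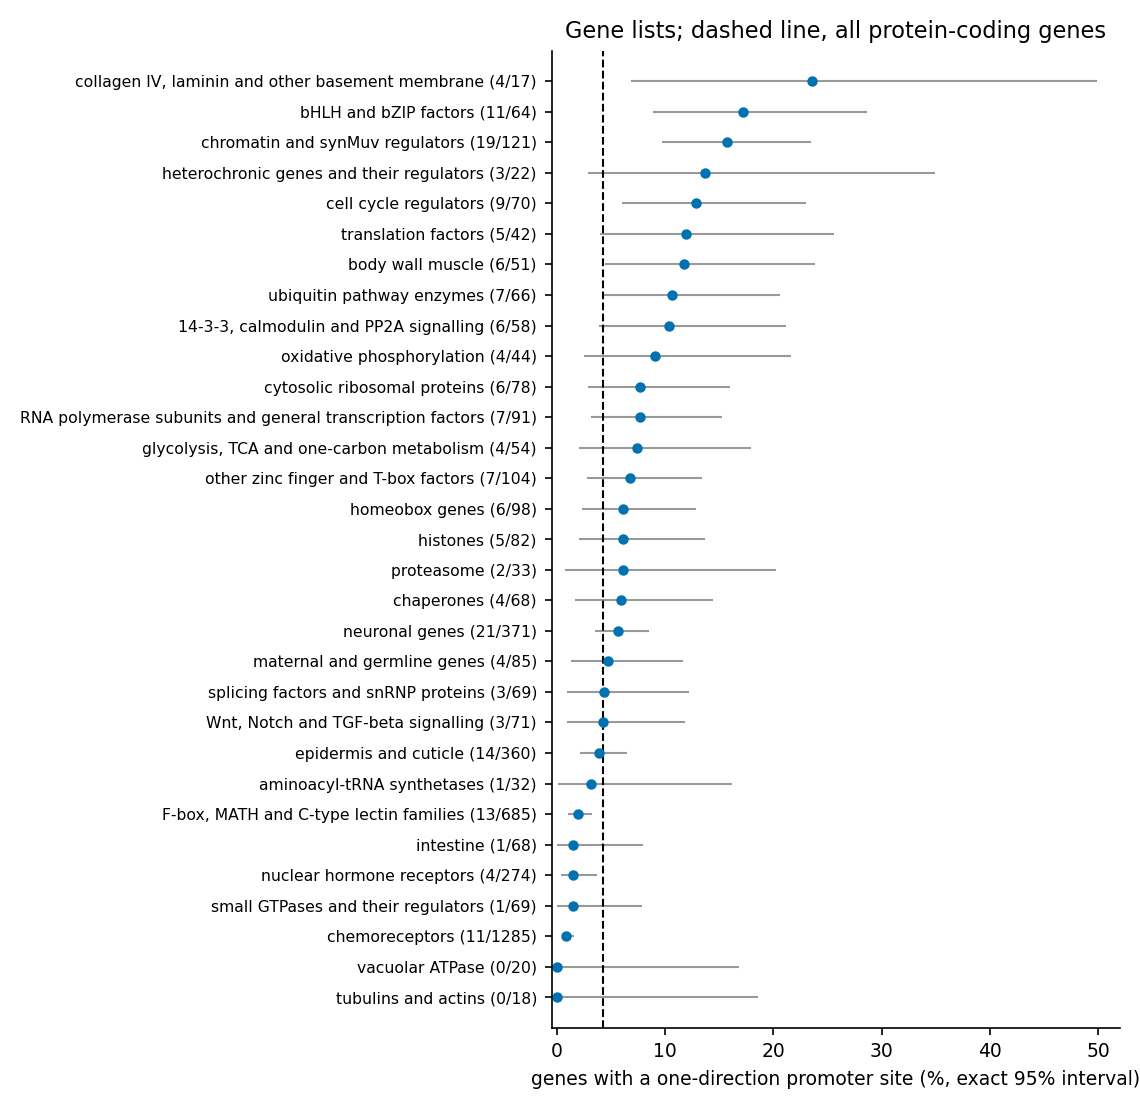
Share of genes in each list with a one-direction promoter site (%), with exact 95% intervals and, in brackets, genes with a site over genes in the list; the dashed line marks the 4.28% of all protein-coding genes. Lists of fewer than 17 genes are left out. bHLH and bZIP factors, chromatin and cell cycle regulators, basement membrane, body wall muscle and ubiquitin pathway genes have whole intervals above the line. For the ubiquitin pathway the interval starts at 4.37%. Chemoreceptors, nuclear hormone receptors and F-box, MATH and C-type lectin families have whole intervals below it. The intervals are not adjusted for the number of lists, which were chosen with earlier results of these data known. Their position against the line is a description and not a test.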

How the data were processed

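FLH-1::GFP ChIP-seq was analysed in 2 biological replicates of 1 group of embryos. Relaxed peak lists of 30000 entries for each replicate and for their pooled reads, and the optimal set of 371 entries, were made by the authors from ce11 alignments against a control alignment, per the file headers in the accompanying description files. No source used here names the aligner, the peak caller or the threshold. The signal value deposited in column 7 of the lists is the authors' own and served to rank and describe entries. The summit position is that deposited with each entry. Depth is unknown.

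Genes came from Ensembl release 115 (WBcel235). The starts and ends of 17578 of its 19973 protein-coding genes were identical in the RefSeq annotation of the assembly, whose sequence was used. Summits were classified, matched between lists within 100 bp, and given windows of 50 bp to each side with Python 3.11.15 and scipy 1.17.1. One-direction and divergent sites were compared by two-sided Fisher's exact tests with Benjamini-Hochberg adjustment over 20 tests, which were run on simulated data first. Intervals are exact (Clopper-Pearson, 95%). Alternatives were another rank limit, promoter, 5′ end, distance and window, and each replicate alone.

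The sites, the 32 gene lists and the 18 words were chosen with earlier results of these data known. After their counts were seen, 2 lists (chromatin, and Wnt, Notch and TGF-beta signalling) were corrected for wrongly matched symbols. Named were the 12 highest sites, those beside the rank limit, those with the largest rank gaps and up to 3 genes of a list. Rank classes, runs of C and A, the spaced pattern and its genes, word pairs, gaps between summits and the optimal sites missing from a replicate list were chosen after values were seen, as were genes named as examples on chromosome X and hlh-1.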

Additional observations from a re-analysis of the deposited data

How the results depend on the processing

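Across the alternatives run, the share of one-direction sites on chromosome X stayed above that of divergent sites, with adjusted p from 4.93e-12 to 0.00301 (two-sided Fisher's exact test). None of these tests took account of promoter bases, of which chromosome X holds 15.4% (one-direction) and 5.54% (divergent) under the main rule. With the strongest 2000 entries in place of 4000 there were 442 sites, 69.7% in both replicates, 16.3% in the optimal set and 88.7% upstream. Support in both replicates was 43.1% with summits matched within 50 bp, 82.3% within 200 bp and 16.3% among the strongest 4000 of each list. Within the optimal set alone it was 94.4%, and 94.4% of those sites were upstream. When the sites were chosen from 1 replicate's own list, 40.8 to 41.6% had a summit within 100 bp in the other replicate's list. Promoters of 500 bp left 78.8% of summits upstream. The share of protein-coding genes with a site was 2.13% with 2000 entries, 3.30% with 500-bp promoters and 5.22% with the 5′ ends of all transcripts. The difference in coding exons was −0.244 points without replicate 2, 2.93 points without replicate 1 and 0.662 points without chromosome X, with the sign turned in both of the last cases, and passed in no setting. The number of words that passed was 3 with 2000 entries (GGGCGG with TTGCAA and with ATTTTT), 2 without replicate 1 (GCGCGC and TTGCAA), 2 with all transcripts and 2 with windows of 100 bp to each side (ATTTTT and TTGCAA in each). It was 0 with 500-bp promoters, 0 without chromosome X and 0 in the optimal set alone, where fewer sites were tested; with windows of 25 bp it was 1, TGCGTC in place of TTGCAA. The settings without chromosome X and with the optimal set alone were chosen after seeing the data. The cause of these shifts was not tested. No paired analysis was possible because there was 1 group.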

Other observations

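A minority of one-direction sites lay beside annotated non-coding RNA genes other than the tRNA, snoRNA, snRNA and microRNA genes that the rule keeps away. Of the 885 sites, 111 had an annotated ncRNA gene within 100 bp of the summit (12.5%, exact 95% interval 10.4 to 14.9%). Among lower-ranked entries 232 of 5280 did (4.39%), and 2.48% of one-direction promoter bases lie that close to one. In the optimal set the count was 18 of 72 (25%). Both ftt-2 sites were among them, beside F52D10.7 and F52D10.9, as were those of T13C5.6, beside C14F11.14, and W01D2.3, beside W01D2.7. Of the 111 sites, 95 lay between protein-coding genes (85.6%) and 47 were on chromosome X (42.3%). Both replicates supported 69 of the 111 (62.2%), against 486 of 774 sites with no such gene (62.8%). These counts were made after values were seen and without a test.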
